A study of Mus musculus with 18 samples.

Results

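The peaks of 2 histone marks were compared at 10 genes of the p53 and cell cycle pathways, Mdm2, Cdk4, Cdkn2a, Cdkn2b, Trp53, Cdkn1a, Rb1, Myc, Mdm4 and Ccnd1, between mouse embryonic fibroblasts (MEFs) with and without Kap1. They are 10 of 22350 protein-coding genes of the autosomes and the X chromosome, taken by name with earlier results of these data known. Each was given a window of its gene body in the mm9 assembly with 20 kb on both sides. The control cells, called WT here, carried loxP sites on both copies of Kap1, and the Kap1 KO cells had lost the gene. Both were embryonic fibroblasts, of strain C57BL/6 in the labels and C57BL/6J in the methods, and H3K27ac and H3K9me3 were profiled by ChIP-seq in 1 library per genotype and mark. KAP1 itself was profiled in 1 library of Hepa 1.6 cells, a hepatoma line from a tumour of a C57L mouse with its Kap1 intact, and those peaks are set beside the MEF peaks as values from another cell type. The study's methods describe, for RNA-seq, a Kap1 KO clone kept in culture for many passages beside its non-excised counterpart. Whether the ChIP-seq came from that clone is not given in the sources used here.

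With 1 library per genotype there was no spread between replicates, so values are given side by side with no test. The deposited lists hold the position and score of each peak and no read counts, so sequencing depth is not known. Where no peak was listed, enrichment too weak for the peak caller may still be present. The H3K27ac lists held 36275 peaks in WT and 36436 in Kap1 KO MEFs, the H3K9me3 lists 14425 and 4319, and the KAP1 list 13366. A score of 3100 was in practice the ceiling of the scale, held by 27.5% of the WT and 21.2% of the Kap1 KO H3K27ac peaks, so that widths say more than scores at strong sites. An H3K27ac peak lay within 1 kb of a transcript start for 10 of 12 fibroblast markers in WT and 9 of 12 in Kap1 KO MEFs, where Dcn lacked one. None of 5 hepatocyte, 5 ES cell and 4 blood markers had such a peak in either genotype. Of 4 epithelial markers Krt8 had one in WT MEFs, of 3 endothelial markers Pecam1 had one in both, and of 2 muscle markers Myog had one in Kap1 KO MEFs. Trim28, which encodes KAP1, had 4 H3K27ac peaks in each genotype, over 12961 and 13118 bases of its window. It had no H3K9me3 peak in either genotype and 3 KAP1 peaks in Hepa 1.6 cells. These lists do not show the deletion itself.

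The p53 protein, encoded by Trp53, is a transcription factor that halts division or kills the cell after DNA damage. Mdm2 marks it for destruction and is itself a p53 target, and Mdm4 is the relative of Mdm2 that blocks p53 activity. Cdkn1a encodes p21, the p53 target that inhibits cyclin-dependent kinases. Ccnd1 encodes cyclin D1, the partner of the kinase Cdk4, which phosphorylates the retinoblastoma protein Rb1 and so frees E2F factors for entry into S phase. Cdkn2b and Cdkn2a encode the Cdk4 inhibitors p15 and p16, and Cdkn2a also encodes p19Arf, which restrains Mdm2. Myc encodes a transcription factor that drives growth. Cultured MEFs that keep dividing are known often to have lost the p53 or the Arf arm of this network. H3K27ac marks active promoters and enhancers, and H3K9me3 marks silenced chromatin and is deposited, among other enzymes, by SETDB1 where KAP1 is brought to DNA.

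At Mdm2 and Cdk4, H3K27ac formed peaks in Kap1 KO MEFs that were several times wider than any in the same windows of WT MEFs. The widest peak went from 9270 to 33544 bp at Mdm2, a ratio of 3.62, and from 4112 to 17785 bp at Cdk4, a ratio of 4.33. They were the 2 of the 10 genes whose widest peak was at least 2-fold wider in Kap1 KO, against a background of 1.86% of the 15702 protein-coding windows with a peak in both lists. In that ranking Cdk4 stood at position 22 and Mdm2 at position 40. The call on the widest peak was added after seeing the data, and the genes were chosen with the peaks of distal chromosome 10 known. Both genes also lie in a band of chromosome 10, described below, in which 31 of 97 windows passed. The 1.86% is therefore given as description, and the 2 genes are not independent cases. At the other 8 genes the ratio lay between 0.629 at Cdkn1a and 1.95 at Rb1, and none had a widest peak at least 2-fold narrower, which held for 2.1% of windows.

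**Figure D1:**
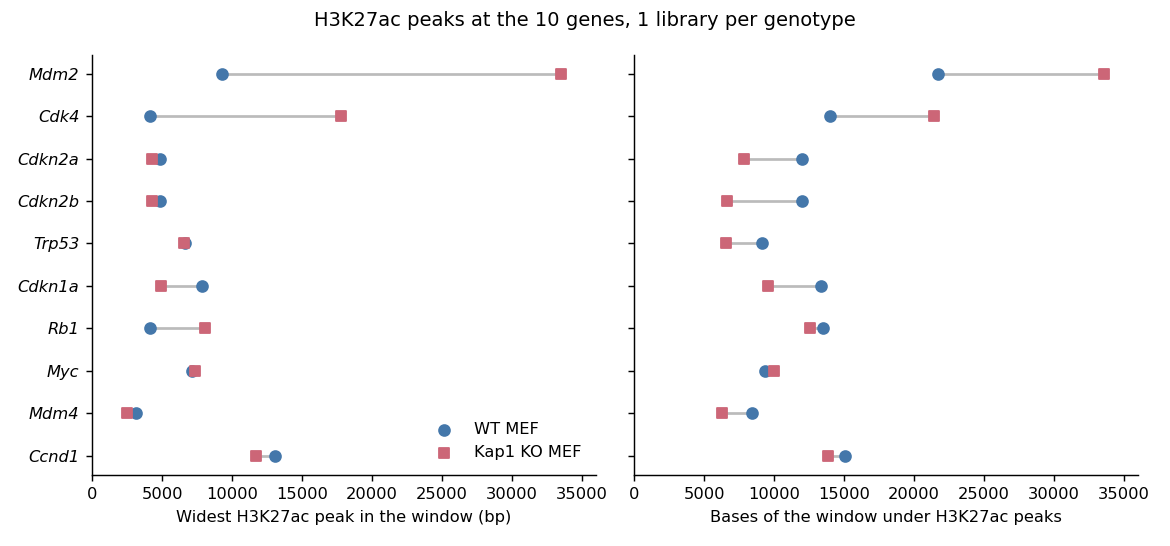
Width of the widest H3K27ac peak (left, bp) and bases of the window under H3K27ac peaks (right) at each of the 10 genes in WT (blue circles) and Kap1 KO MEFs (red squares), 1 library each. Mdm2 rises from 9270 to 33544 bp in width and Cdk4 from 4112 to 17785 bp, while the Kap1 KO to WT ratio of bases lies between 0.554 at Cdkn2b and 1.55 at Mdm2.

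Mdm2 (ENSMUSG00000020184.8, chr10:117125944-117147814, minus strand) had 5 H3K27ac peaks in WT MEFs. The one over its start was 8764 bp wide and one upstream, 3517 to 12786 bp before the start, was 9270 bp wide, both with a score of 3100. A pair of smaller intronic peaks of 2578 and 1033 bp had scores of 191.82 and 71.79. In Kap1 KO MEFs 1 peak of 33544 bp (chr10:117128097-117161640) ran from 13826 bp before the start to 19717 bp after it and took in those 4 WT peaks. It was the 7th widest of the Kap1 KO list, and one further WT peak, with a score of 86.64 at the far upstream edge of the window, had no Kap1 KO counterpart. Bases of the window under H3K27ac went from 21700 to 33544, a ratio of 1.55.

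Cdk4 (ENSMUSG00000006728.6, chr10:126500590-126504976, plus strand) had 6 H3K27ac peaks in WT and 3 in Kap1 KO MEFs, over 13984 and 21409 bases. One Kap1 KO peak of 17785 bp (chr10:126495279-126513063) covered the whole gene and 4 WT peaks of 1951, 3635, 4112 and 2675 bp, from 4650 bp before the start to 12082 bp after it. The other pairs were also wider in Kap1 KO, at 5187 against 3564 bp upstream and 2360 against 1432 bp downstream. The 4 WT peaks together spanned 16733 bp, so that most of the width of the Kap1 KO peak comes from close peaks listed as 1. The median width ratio over the 3 pairs of the Cdk4 window was 1.65, and 1.55 over pairs of 1 peak with 1 peak. At Mdm2 the 4 WT peaks spanned 26186 bp, so that the Kap1 KO peak was 1.28 times as wide as their span, against 1.06 at Cdk4. Over the whole genome only 8 Kap1 KO peaks covered 4 or more WT peaks, and 11 WT peaks covered 4 or more Kap1 KO peaks. The Mdm2 and Cdk4 peaks are 2 of those 8. Such a window also holds neighbouring genes, and a peak in it need not belong to the gene named.

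The 250 bases before the Cdk4 start are shown because a KAP1 peak of Hepa 1.6 cells (824 bp, score 647) and both H3K27ac peaks lie over them. The stretch is chr10:126500340-126500589 on the plus strand of mm9, and capitals mark the E-box CACGTG, the word bound by Myc and its partners.
Cdk4: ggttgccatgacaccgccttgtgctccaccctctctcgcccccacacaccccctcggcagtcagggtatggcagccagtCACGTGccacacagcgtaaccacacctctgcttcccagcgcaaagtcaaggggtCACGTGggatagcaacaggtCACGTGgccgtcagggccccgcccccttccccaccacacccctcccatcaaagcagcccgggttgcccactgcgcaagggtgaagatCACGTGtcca
It held 4 E-boxes. Among 69932 annotated transcript starts of protein-coding genes, the 250 bases upstream held at least 1 E-box at 6.31% and 4 or more at 0.0143%, or 10 starts, 4 of them the closely spaced starts of Cdk4 itself. A match is a word in the sequence and does not show binding.

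The surroundings of both genes also held H3K9me3 values unlike those of the other 8. Within 1 Mb of Mdm2 there were 43 H3K9me3 peaks in WT and 166 in Kap1 KO MEFs, over 26278 and 489989 bases. Around Cdk4 the numbers were close, 69 and 65, but the bases under them went from 42549 to 148876. Mdm2 was the only one of the 10 genes with more Kap1 KO than WT peaks within 1 Mb, as 7.07% of genes with a peak of either list had. The other 8 genes had between 2 and 32 WT peaks and between 0 and 4 Kap1 KO peaks in that range, where the medians over all genes were 11 and 1. H3K27ac peaks followed the same division. Paired Kap1 KO and WT peaks had a median width ratio of 1.59 over 35 pairs within 1 Mb of Mdm2 and of 1.7 over 48 pairs around Cdk4, and 29 and 47 of these pairs were wider in Kap1 KO. Around the other 8 genes the median lay between 0.896 and 1.03.

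**Figure D2:**
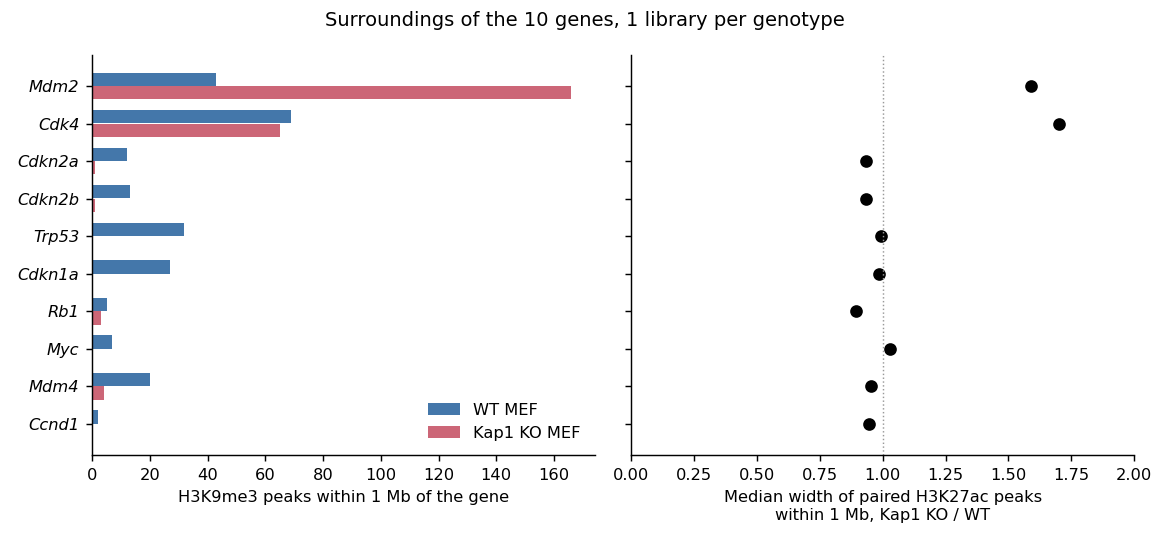
H3K9me3 peaks within 1 Mb of each gene in WT (blue) and Kap1 KO MEFs (red), left, and the median width of Kap1 KO over WT paired H3K27ac peaks in the same range, right, with a dotted line at 1. Mdm2 stands at 166 Kap1 KO peaks against 43, and the width medians of Mdm2 and Cdk4, 1.59 and 1.7, lie above those of the other 8 genes, which end at 1.03.

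Mdm2 and Cdk4 lie 9.35 Mb apart near the end of chromosome 10. When Kap1 KO H3K9me3 peaks less than 1 Mb apart were joined, both genes fell in 1 band of 13.4 Mb (chr10:114066676-127419877) that began 3.06 Mb before Mdm2 and ended 0.915 Mb after Cdk4. The band held 1180 Kap1 KO peaks, 27.3% of that list, and 220 WT peaks, 1.53% of theirs. The next group in number of peaks, on chromosome 5, held 139. Kap1 KO H3K9me3 peaks covered 19.1% of the band and WT peaks 1.05%. The band was drawn from the Kap1 KO H3K9me3 peaks, so their excess over WT peaks inside it is partly set by its definition. Kap1 KO H3K9me3 peaks were wide there, with a median of 1786 bp against 397 bp elsewhere, and had a median score of 94.7 against 60.5. An overlap with a WT H3K9me3 peak was found for 4.75% of them, against 13% elsewhere. High width and score were not the band's alone. A group of 0.393 Mb on chromosome 1 (chr1:84950215-85343674) held 90 Kap1 KO and 24 WT H3K9me3 peaks. At the median, its Kap1 KO entries scored 94.8 and spanned 1171 bp. They were also denser, at 229 per Mb against 88.4 in the band. Joining peaks less than 500 kb apart split the band, with Mdm2 in a piece of 3.5 Mb and 303 Kap1 KO peaks and Cdk4 in one of 6.24 Mb and 788. The joining distance of 1 Mb was chosen after these values were seen.

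H3K27ac in the band had fewer and wider peaks in Kap1 KO, 238 against 301, with a median width of 3318 against 1951 bp. Elsewhere the medians were 1921 bp in Kap1 KO and 1986 bp in WT. Of 190 paired peaks in the band 88.4% were wider in Kap1 KO and 28.4% at least 2-fold wider, against 39.4% and 2.54% of the 27924 pairs elsewhere. The median ratio was 1.55 in the band and 0.955 elsewhere. Mdm2 and Cdk4 were 2 of 31 genes at least 2-fold wider among the 97 of the band with a peak in both lists, or 32%, and the band held 10.6% of all such windows of the genome. Along the chromosome, 0 Kap1 KO H3K9me3 peaks were listed between 16 and 4 Mb before Mdm2, and the median width ratio of H3K27ac pairs in single steps of 1 Mb lay there between 0.544 and 0.96. The marks did not go together in every step. From 12 to 13 Mb past Mdm2, beyond the band, the ratio was 1.49 over 5 pairs with 0 Kap1 KO H3K9me3 peaks, and from 7 to 8 Mb, with 273 such peaks, it was 0.983 over 2 pairs. On chromosome 10 outside the band the median ratio was 0.875 over 1363 pairs, with 1629 Kap1 KO against 1953 WT peaks.

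**Figure D3:**
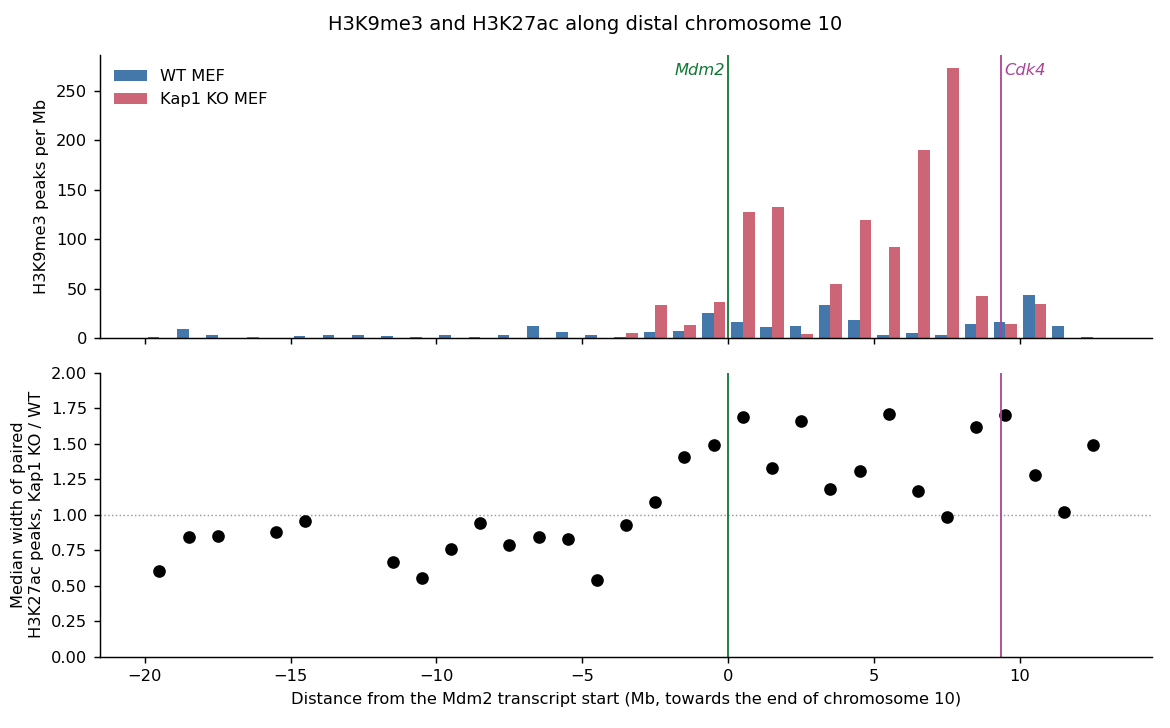
H3K9me3 peaks per step of 1 Mb in WT (blue) and Kap1 KO MEFs (red), top, and the median width of Kap1 KO over WT paired H3K27ac peaks per step, bottom, by distance from the Mdm2 start, with vertical lines at Mdm2 and Cdk4. Kap1 KO H3K9me3 peaks reach 273 in the step 7 to 8 Mb past Mdm2 and are 0 from 11 Mb on, and widths stand below 1 in each step with pairs from 20 to 3 Mb before Mdm2.

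The H3K9me3 of the band did not lie on the genes themselves. Neither Mdm2 nor Cdk4 had an H3K9me3 peak of either genotype in its window. The nearest Kap1 KO peak was 44755 bp from Mdm2 and 166416 bp from Cdk4, and the nearest WT peak 71823 and 23303 bp away. Over the band, 10 of the 1180 Kap1 KO H3K9me3 peaks overlapped a Kap1 KO H3K27ac peak. The like count outside the band was not made, so this overlap is not shown to be particular to the band. The wide acetylated peaks at these genes thus go with a band in which both marks differ between the libraries over several megabases. Peak lists do not give the number of copies of a region, the input libraries were not analysed here, and with 1 library per genotype the genotype and the history of the culture cannot be told apart. Whether copy number has a part in these values was not tested.

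No window of the 10 genes lost all its H3K27ac peaks in Kap1 KO, which happened in 3.45% of the windows with a WT peak. In bases under H3K27ac, 0 of the 10 were at least 2-fold higher and 0 at least 2-fold lower in Kap1 KO, where the background was 7.61% and 6.83% of 17037 windows. The median ratio was 0.832 over the 10 genes and 0.95 over all windows with a peak in both lists. In all the 10 windows held 33 distinct WT peaks, of which 6 had no Kap1 KO counterpart. They also held 23 Kap1 KO peaks, of which 2 had no WT counterpart. Of the whole list of 36436 Kap1 KO peaks, 190 in the band and 27924 elsewhere had a WT counterpart. The like count over all WT peaks was not made. Scores of 3100 were held by 18 of the WT and 11 of the Kap1 KO peaks, beside 27.5% and 21.2% of the whole lists. Numbers of peaks also fall where close WT peaks are listed as 1 in Kap1 KO, as at Mdm2 and Cdk4.

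None of the 3 inhibitors of cyclin-dependent kinases among the 10 genes passed 2-fold in bases under H3K27ac, but 2 of them differed at their starts. Cdkn2b (ENSMUSG00000073802.4, chr4:88952198-88956941, minus strand) had a WT peak of 4161 bp with a score of 3100 over its start (chr4:88953599-88957759), and no Kap1 KO peak there or within 1 kb. Genes with a WT but no Kap1 KO peak within 1 kb of any of their starts were 1 of the 10, and 4.78% of the 12205 with a WT peak there. Among the 8800 genes whose WT peak had a score of at least 3100, as at Cdkn2b, the share was 0.364%, or 32 genes. Cdkn2a (ENSMUSG00000044303.5, chr4:88920377-88940557, minus strand) starts next to it, and their windows overlap and share peaks. The peak over the outermost Cdkn2a start, that of the Arf transcript by its position, was 4818 bp wide in WT and 4268 bp in Kap1 KO with a score of 3100 in both. A peak between both genes measured 2052 and 2393 bp. An intronic WT peak of 994 bp with a score of 155.01 had no Kap1 KO counterpart, and a Kap1 KO peak of 1206 bp beyond the gene had no WT one. Bases under H3K27ac went from 12025 to 7867 at Cdkn2a and from 12025 to 6661 at Cdkn2b, ratios of 0.654 and 0.554. The peaks at the Cdkn2a start and between both genes were thus listed in both genotypes, and the Cdkn2b start was the one place of the locus at which a ceiling score gave way to no peak. On the whole of chromosome 4 there were 1843 Kap1 KO against 2153 WT H3K27ac peaks, and pairs had a median width ratio of 0.868.

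The 250 bases upstream of the Cdkn2b start (chr4:88956942-88957191, minus strand) lie under the WT peak and under no Kap1 KO peak, and are shown for that reason. They hold neither an E-box nor the E2F words TTTCCCGC and TTTGGCGC on either strand, so that no letter is in capitals.
Cdkn2b: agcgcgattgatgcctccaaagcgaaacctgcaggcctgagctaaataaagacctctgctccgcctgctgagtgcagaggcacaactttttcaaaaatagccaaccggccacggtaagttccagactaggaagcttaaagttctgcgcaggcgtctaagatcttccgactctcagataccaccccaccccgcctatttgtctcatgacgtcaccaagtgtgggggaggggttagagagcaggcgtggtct
The upstream bases of Cdkn2a held 1 E2F word, as at 1.53% of all starts.

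Cdkn1a (ENSMUSG00000023067.7, chr17:29227924-29237667, plus strand) had a WT peak of 7870 bp that began 890 bp before the outermost start, with a score of 3100. The Kap1 KO peak, also at 3100, was 4948 bp wide and began 1875 bp after that start, while both ended within the gene at 6979 and 6822 bp. It covered 1 of the 3 annotated starts, and the WT peak covered 2. Upstream, 1 WT peak of 5510 bp at 3100 stood against Kap1 KO peaks of 2997 and 1639 bp with scores of 1662.94 and 324.36. Bases under H3K27ac were 13380 and 9584, a ratio of 0.716. Cdkn1a was the one gene of the 10 whose Kap1 KO peak paired with the WT start peak but did not reach the outermost start.

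**Figure D4:**
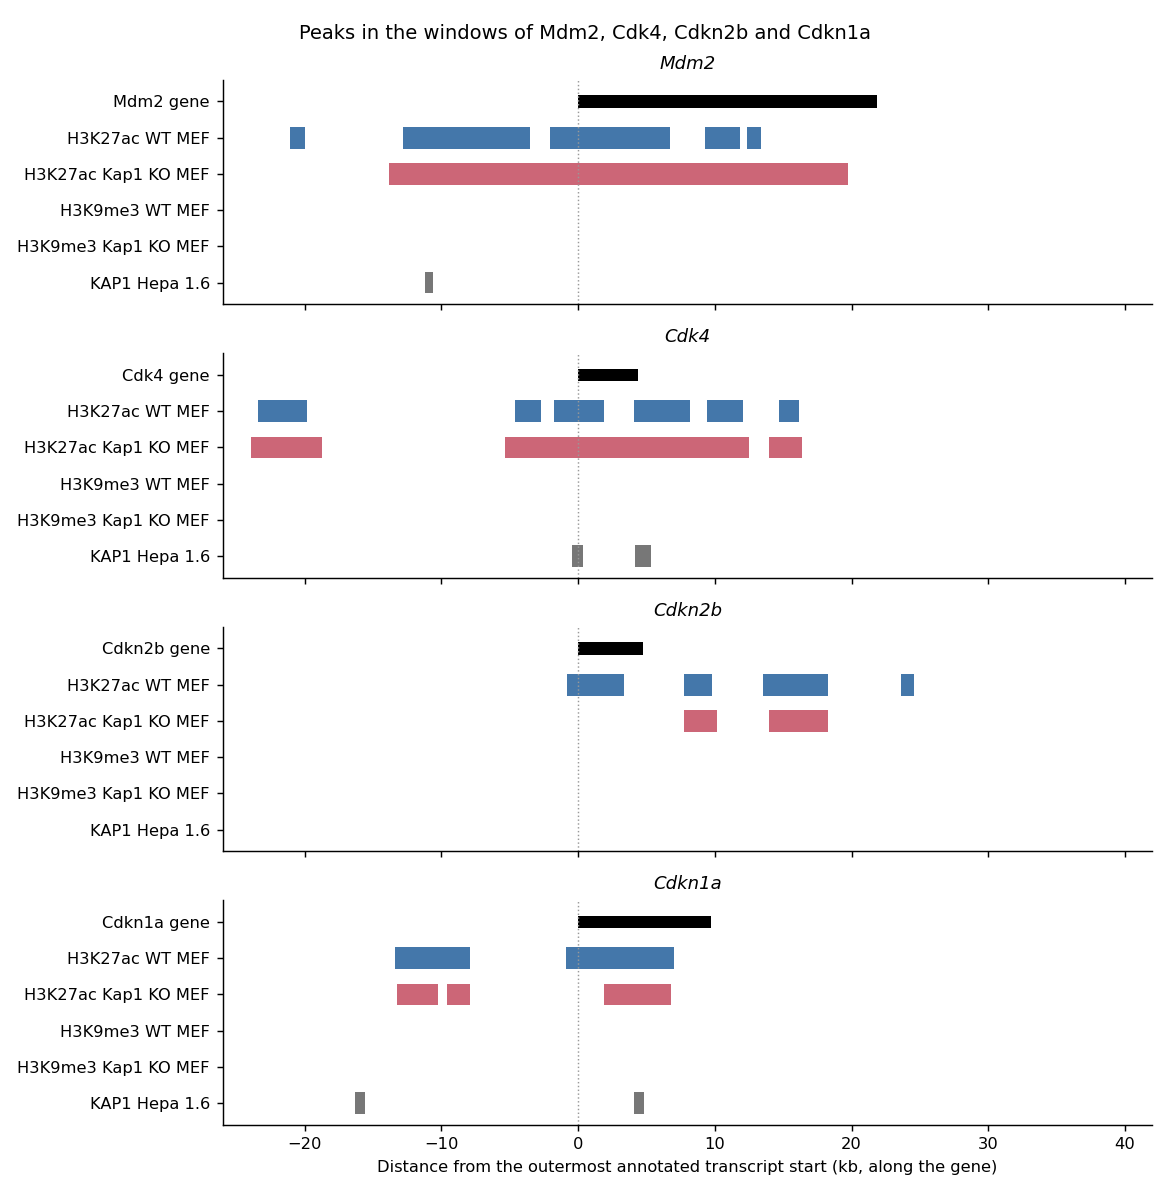
Peaks of the 5 lists in the windows of Mdm2, Cdk4, Cdkn2b and Cdkn1a, by distance in kb from the outermost annotated start along the gene, with the gene as a black bar. A single Kap1 KO H3K27ac peak of 33544 bp spans 4 WT peaks at Mdm2 and one of 17785 bp spans 4 at Cdk4, the Cdkn2b start has no Kap1 KO peak, and the Cdkn1a peak begins 1875 bp after the start in Kap1 KO.

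The p53 protein binds pairs of half-sites, and CATG is a form that the core of a half-site can take. The windows were searched for CATG, 6 further bases and CATG, which reads the same on both strands. Other cores and spacings were not searched, so the pairs are not a full list of possible p53 sites. There were 33 such pairs in the 10 windows, of which 9 lay under a WT and 7 under a Kap1 KO H3K27ac peak. All 7 were under WT peaks too, 5 of them at Mdm2, 1 at Cdk4 and 1 at Rb1. The 2 pairs under WT peaks alone lay 48 to 35 bp before the outermost Cdkn1a start and 2730 to 2717 bp before that of Cdkn2a. For Cdkn1a the nearest Kap1 KO peak was 1909 bp away and for Cdkn2a 307 bp. Over all annotated starts, 10.2% had such a pair within the 3000 bases upstream. That share is for starts, and none was computed for pairs in whole windows or under peaks. At Mdm2, which holds 5 of the 7, H3K27ac peaks covered 35.1% of the window in WT and 54.2% in Kap1 KO. Stretches of Cdkn1a (chr17:29227864-29227901, plus strand), Cdkn2a (chr4:88943262-88943299, minus strand) and, as one kept under peaks of both genotypes, upstream of Mdm2 (chr10:117154783-117154820, minus strand) are given with the cores in capitals.
Cdkn1a: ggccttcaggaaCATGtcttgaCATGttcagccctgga
Cdkn2a: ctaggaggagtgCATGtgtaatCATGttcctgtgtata
Mdm2: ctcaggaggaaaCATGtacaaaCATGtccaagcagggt
The pair at Cdkn1a lies in the part of the WT peak that the Kap1 KO list lacks, while the one upstream of Mdm2 lies inside the peak of 33544 bp. No p53 binding was measured here.

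The outermost starts of the remaining genes held peaks of like width in both genotypes. Trp53 (ENSMUSG00000059552.6, chr11:69393861-69405375, plus strand) had a start peak of 6645 bp in WT and 6543 bp in Kap1 KO, both with a score of 3100. WT peaks of 1143 and 1321 bp with scores of 77.4 and 156.61 had no Kap1 KO counterpart, which brought its bases from 9109 to 6543, a ratio of 0.718. The one of 1143 bp lay 33 bp from a further annotated Trp53 start. Within 1 Mb of Trp53 there were 104 WT and 108 Kap1 KO H3K27ac peaks, and pairs had a median width ratio of 0.993.

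Mdm4 (ENSMUSG00000054387.6, chr1:134886422-134921943, minus strand) had 4 peaks in each genotype, each with a counterpart. The start peak was 2570 and 2478 bp wide with a score of 3100 in both. The other 3 had lower scores in Kap1 KO. An exonic peak went from 3162 bp and 2051.46 to 1591 bp and 173.71, and upstream peaks went from 3100 to 1403.45 and from 3100 to 1271.57. Its bases went from 8412 to 6275, a ratio of 0.746.

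Ccnd1 (ENSMUSG00000070348.4, chr7:152115836-152125774, minus strand) had a start peak of 13058 bp in WT, the widest WT peak of the 10 genes, and of 11702 bp in Kap1 KO. A downstream pair measured 2002 and 2135 bp, and the ratio of bases was 0.919. Rb1 (ENSMUSG00000022105.6, chr14:73583480-73725629, minus strand) had a start peak of 3432 bp in WT and 3075 bp in Kap1 KO, at 3100 in both. Deep in the gene, 84984 to 93053 bp from its start, WT peaks of 3467 and 4146 bp stood against 1 Kap1 KO peak of 8070 bp, which gave the ratio of 1.95 for the widest peak. The WT peak of 4146 bp and the Kap1 KO peak lay over a further annotated Rb1 start. Its bases barely differed, 13517 and 12554, and both WT peaks spanned 7899 bp, so that the ratio comes from 2 close peaks listed as 1. Rb1 was outside the band of chromosome 10, and pairs within 1 Mb of it had the median of 0.896. Myc (ENSMUSG00000022346.8, chr15:61816946-61821929, plus strand) had a peak over the gene of 7112 bp in WT and 7386 bp in Kap1 KO. A downstream peak went from 2237 to 1226 bp, and a Kap1 KO peak of 1401 bp with a score of 269.71, 12945 bp from the start, had no WT counterpart. Its ratio of bases was 1.07.

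Few H3K9me3 peaks lay in the windows themselves, with shares of genes near those of all windows. WT MEFs had a peak at 2 of the 10 genes, against 27.4% of all windows, and Kap1 KO MEFs at 1 of 10, against 4.44%. At Cdkn2a a WT peak of 559 bp with a score of 259.91 and a Kap1 KO peak of 385 bp with 147.05 overlapped, beyond the end of the gene and 9380 and 9489 bp from it. At Rb1 an intronic WT peak of 373 bp with a score of 72.86 had no Kap1 KO counterpart. Over the 5 lists, the patterns of bases under peaks closest to that of Rb1 were those of Prtg, Magi3 and Mta1. Their distances were 0.0445, 0.0506 and 0.0521 (log10 scale, bases plus 100). Each had 387 to 418 bases under WT H3K9me3 peaks and none in Kap1 KO, a likeness that follows from how they were picked.

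In Hepa 1.6 cells a KAP1 peak was listed at 7 of the 10 genes, against 43.9% of all windows, with 13 peaks in all. The SETDB1 list of the same cells held 0 of the 13. All 2957 entries of that list have the position of a KAP1 peak, 22.1% of the KAP1 list. It thus lists no SETDB1 site outside KAP1 peaks and is not a separate profile. Myc had the widest KAP1 peak of the 10 windows, 5572 bp over the gene with a score of 640. It was the 7th widest of the KAP1 list, and another of 2902 bp lay just downstream. Peaks lay over the starts of Myc, Cdk4, Mdm4 (883 bp, score 159) and Trp53 (589 bp, score 83). The one peak of the 10 windows at 3100 lay 8159 bp upstream of Mdm4 (chr1:134930102-134931264), at an H3K27ac peak of both MEF genotypes. Ccnd1 had 3 peaks with scores of 195 to 365 and Cdkn1a 2 with 290 and 113. At Mdm2 the only peak, with a score of 87, was 10624 bp upstream. Cdkn2a, Cdkn2b and Rb1 had none. KAP1 in MEFs was not analysed here.

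Other genes of the network, taken from lists by function, did not share the widened peaks of Mdm2 and Cdk4. Sesn1, Perp, Apaf1, Dram1, E2f7, Cdk2 and Sirt1 lie on chromosome 10 and the others on other chromosomes. Whether any lies in the band, where 32% of windows were at least 2-fold wider, was not examined. The comparison thus does not separate the network from the position on chromosome 10. None of 27 further p53 targets, 25 genes of the RB and E2F pathway, 11 of the Myc network and 18 regulators and relatives of p53 had bases under H3K27ac at least 2-fold higher or a widest peak at least 2-fold wider in Kap1 KO. The shares over all protein-coding windows were 7.61% of those with a peak in either list and 1.86% of those with one in both. In bases Mdm2 and Cdk4 did not pass 2-fold either, with ratios of 1.55 and 1.53. E2f3 and Chek1 had higher ratios than both, 1.66 and 1.61, so that only the widest peak set Mdm2 and Cdk4 apart from these lists. The median ratios of bases were 0.963, 0.908, 0.992 and 0.93, beside 0.95 over all windows. All 27 p53 targets had a start peak in both genotypes, as did all 11 genes of the Myc network. Of the 25 RB and E2F genes 24 had one in WT and 23 in Kap1 KO, and of the 18 regulators 16 and 15. Over all genes, 12205 of 22350 had a WT start peak, and 4.78% of these lacked one in Kap1 KO. In the RB and E2F list 2 of the 24 genes with a peak were at least 2-fold lower, beside 6.83% of all windows. E2f2, an activating E2F, went from 17462 to 7579 bases, and E2f6, a repressive one, went from 4108 to 921 and lost its start peak. Among the 18 regulators 2 were at least 2-fold lower as well. Trp63, the p53 relative of epithelial stem cells, went from 9540 to 3745 bases with no start peak in either genotype, and Tbx2, a repressor of the Cdkn2a locus, went from 1 peak of 916 bp to none. Of the p53 targets Perp, a membrane protein of cell junctions, had its widest peak go from 4248 to 2009 bp. It was the only 1 of the 27 at least 2-fold narrower, beside 2.1% of all windows with a peak in both lists.

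H3K9me3 was listed in WT MEFs in the windows of 5 of the 27 p53 targets, 7 of the 25 RB and E2F genes, 3 of the 11 Myc network genes and 5 of the 18 regulators, and in Kap1 KO MEFs in 0 of each, beside 27.4% and 4.44% of all windows. Those with most bases were Sirt1, a deacetylase of p53, with 3865, Cbx7, a Polycomb protein that represses Cdkn2a, with 3525, and Pmm1 with 2524. In the RB and E2F list they were Tfdp1, the partner of E2F, with 1661, E2f7 with 1609 and Ccne2 with 1379. Trp53inp1 also had 1379, from the same stretch of chromosome 4, Tbx2 had 1399, Perp 725 and Max, the partner of Myc, 655. KAP1 peaks of Hepa 1.6 cells were in the windows of 17, 16, 4 and 8 genes of the 4 lists, in the same order, beside 43.9% of all windows.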

How the data were processed

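Peak lists of 6 of the 18 samples of the series were used, 1 library per condition: H3K27ac and H3K9me3 in WT and Kap1 KO MEFs, and KAP1 and SETDB1 in Hepa 1.6 cells. The authors mapped single-end reads of 100 bp to mm9 with Bowtie 2 (2.2.1 in the submitters' processing notes) with the sensitive-local setting. Peaks were called against total input by MACS (1.4), and the authors deposited each peak's position with its score. A cutoff of 80 is named in the methods. Scores began at 80 in the Hepa 1.6 lists and at 50 to 50.03 in the MEF lists, and no peak was left out. Depth is unknown, since the lists hold no counts. Libraries of other cells, inputs and RNA-seq were not analysed here.

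Gene bodies and transcript starts came from the GENCODE vM1 annotation of mm9. A peak was counted in a window when they shared at least 1 bp, a fold of 2 was used for calls, and a peak belonged to a start within 1 kb of it. Each Kap1 KO peak was paired with the WT peak it overlapped most. No test between genotypes was possible with 1 library each, and shares over all protein-coding windows serve as background. The genes, lists and rules were chosen with earlier results of these data known, among them the peaks of distal chromosome 10. The call on the widest peak, the band and its joining distance, and their alternatives, were added after seeing the data. Named genes were the 10 members and Trim28. Of each list, up to 3 genes past 2-fold and up to 3 with most H3K9me3 bases were named, and for a member past 2-fold in a mark the 3 genes of closest pattern. Miz1 was not found in the annotation. Sequences were read from the mm9 genome, and 0 peaks ran past a chromosome end. Python 3.11.15, numpy 2.4.6, pysam 0.24.0, samtools 1.23.1 and matplotlib 3.10.9 were used. The window counts were tested on simulated data, where all 200 windows were called as made, and 0 windows differed from bedtools.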

Additional observations from a re-analysis of the deposited data

How the results depend on the processing

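Of 42 recomputed counts of members, 29 stayed within 1.5 times the reported count and 13 did not. With the gene body and no flank, 1 gene was at least 2-fold higher in H3K27ac bases (Cdk4, 2177 to 4387) and 1 at least 2-fold lower (Cdkn2b, 3343 to 0), and an H3K9me3 peak was found at 1 gene in WT and 0 in Kap1 KO. With 50 kb on both sides an H3K9me3 peak was found at 4 genes in WT and 3 in Kap1 KO, among them Mdm2 with 3 Kap1 KO peaks. The 50% of peaks with the highest scores, a score of at least 80 and lists cut to equal length by score each left 1 gene with a WT H3K9me3 peak, Cdkn2a. Counting peaks in place of bases put 4 genes at least 2-fold lower, Mdm2, Cdk4, Cdkn2b and Trp53. Mdm2 and Cdk4 thus change sides between number and bases, since their Kap1 KO peaks are fewer and wider. A fold of 1.5 gave 2 genes higher (Mdm2 and Cdk4), 2 lower (Cdkn2a and Cdkn2b) and 1 with a narrower widest peak (Cdkn1a). The count of 2 genes with a widest peak at least 2-fold wider stayed within 1.5 times in each alternative run, and was 3, with Rb1, at a fold of 1.5. The median width ratio in the band was 1.45 over 168 pairs of 1 peak with 1 peak and 1.47 over 171 pairs with scores of at least 80. At that score the band kept its ends and held 722 Kap1 KO H3K9me3 peaks. No paired analysis was possible because each genotype had 1 library per mark. Peak lists without read counts limit all values to what the peak caller listed.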
